A study of Sus scrofa with 18 samples.

Results

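The microRNAs (miRNAs) described here are those of the miR-17, miR-18, miR-19, miR-20 and miR-106a names, measured in backfat, the fat under the skin of the back, in 18 pigs of the Italian Large White breed. They were chosen by mature name from the deposited count table: miR-17, 18a, 18b, 19a, 19b, 20a, 20b, miR-93, miR-106a and miR-106b, bare or with the arm suffix 5p or 3p. This gave 9 of the 240 mature miRNAs in the table, listed as ssc-miR-17-5p, ssc-miR-17-3p, ssc-miR-18a, ssc-miR-18b, ssc-miR-19a, ssc-miR-19b, ssc-miR-20a, ssc-miR-20b and ssc-miR-106a and written here without the species prefix. miR-93 and miR-106b were not analysed here. The study set 9 pigs of high backfat deposition, 5 of them labelled neuter and 4 female, against 9 of low backfat deposition, 4 neuter and 5 female. All pigs were housed and fed alike and weighed 150 to 160 kg, with ages of 241 ± 4.47 days in high-backfat pigs and 243 ± 6.04 days in low-backfat pigs (SD, n = 9 each).

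miRNAs are short RNAs that guide repressor proteins to messenger RNAs, chiefly through pairing of the seed, the bases near the 5′ end. The miR-17 to 92a cluster is a single primary transcript that holds miR-17, miR-18a, miR-19a, miR-20a, miR-19b and miR-92a, is switched on by MYC in human and mouse cells, and is known for promoting cell proliferation and restraining cell death. A related transcript holds miR-106a, miR-18b, miR-20b, another copy of miR-19b, another of miR-92a and miR-363, and in mouse preadipocytes raised miR-17 to 92a expression is known to speed fat cell differentiation. In the Sscrofa11.1 annotation the pig genes fell into the same groups, named here by position. MIR17, MIR18A, MIR19A, MIR20A, MIR19B-1 and MIR92A-1 were neighbours within 10000 bases of each other. MIR363-1, MIR92A-2, MIR19B-2, MIR20B-1, MIR18B and MIR106A were neighbours in a separate stretch. Strand was not read, so the direction of transcription is not given.

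The sequences are shown because they sort the members by seed and show how little separates them. Capitals mark the seed, bases 2 to 8 counted from 1 at the 5′ end, and T stands for U as in the deposited table. The first 7 lines are the forms that the table calls exact matches. For miR-106a and miR-18b the table held no exact form, and the leading read is given.
miR-17-5p: cAAAGTGCttacagtgcaggtag
miR-20a: tAAAGTGCttatagtgcaggta
miR-20b: cAAAGTGCtcacagtgcaggtag
miR-18a: tAAGGTGCatctagtgcagata
miR-19a: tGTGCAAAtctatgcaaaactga
miR-19b: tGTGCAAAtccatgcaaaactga
miR-17-3p: aCTGCAGTgaaggcacttgtag
miR-106a, leading read: aAAAGTGCttacagtgcaggtag
miR-18b, leading read: tAAGGTGCatctagtgcagt

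miR-17-5p, miR-20a, miR-20b and the miR-106a read shared a seed, which in human and mouse cells is known to target the cell cycle inhibitor CDKN1A. miR-18a and the miR-18b read shared another, miR-19a and miR-19b a further one, and miR-17-3p, the other arm of the miR-17 hairpin, had its own. Relative to miR-17-5p, counted from its 5′ end, miR-20a carried C1T and C12T, miR-20b carried T10C, and the miR-106a read carried C1A. miR-19a differed from miR-19b by C11T, and the miR-18b read from miR-18a by A20T over the 20 bases they have in common. None of these differences fell in the seed.

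Because the members are so alike, the reads they share were counted. The 9 miRNAs held 157 distinct sequences and 173674 counts over the 18 libraries, and 4 of these sequences were listed under more than 1 member, with 0 listed under any other miRNA. Shared reads made up 8.63% of the counts of miR-20b and 3.65% of those of miR-106a, both shared with miR-17-5p, for which they were 0.187%. For miR-19a and miR-19b, which share 28 counts, they were 0.176% and 0.0361%. miR-17-3p, miR-18a, miR-18b and miR-20a shared no read with another miRNA. miR-19b was listed under both of its precursors, with 58 of its 60 sequences under both, so its counts cannot be assigned to either transcript. Counts listed only under miR-106a, miR-18b or miR-20b, members of the second transcript alone, were 1017, or 0.586% of the group, whereas those listed only under miR-17-5p, miR-17-3p, miR-18a, miR-19a or miR-20a were 94980, or 54.7%, and those only under miR-19b were 77579, or 44.7%.

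Libraries held 9601510 to 34588252 counts, with low replicate 7 the lowest and low replicate 5 the highest. The table holds no count of 1 and the lowest nonzero count of a library was 2 or 3, so a value of 0 may stand for a few reads. High replicate 6 and low replicate 7 stood apart: their median absolute log2 deviation from the median library was 0.574 and 0.400, against 0.128 to 0.304 in the other 16 libraries. The tissue held the adipose list (miR-148a-3p, miR-27b-3p, miR-103, miR-378 and miR-30a-5p) at a summed 87094 to 166427 CPM (counts per 1000000) in high-backfat pigs and 137523 to 171939 CPM in low-backfat pigs. In a piece of tissue, fewer cells of a type and less RNA per cell cannot be told apart.

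The group was a small part of the fat miRNA pool, at 0.0448% ± 0.0110 of counts (SD over 18 libraries). Levels are given as CPM after TMM scaling, which corrects for differences in library makeup, and mature lengths of 22 or 23 bases call for no length correction. How well each sequence is captured in a library was not measured. Comparisons between miRNAs are therefore of counts and not of molecules in the tissue. miR-19b was the most abundant member, with a mean of 203 CPM, and ranked 91 of 240 miRNAs by mean share. miR-17-5p followed at 97.6 CPM, miR-20a at 76.9, miR-19a at 41.4, miR-18a at 18.4 and miR-17-3p at 13.1. The members of the second transcript came last, with means of 1.86 CPM for miR-20b, 0.822 for miR-106a and 0.289 for miR-18b. miR-20b was detected in all 18 libraries, miR-106a in 14 and miR-18b in 7.

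The order of these levels was nearly the same in every animal. miR-19b lay above miR-17-5p in 18 of 18 libraries, miR-17-5p above miR-20a in 17, miR-20a above miR-19a in 17, miR-19a above miR-18a in 17 and miR-18a above miR-17-3p in 14. miR-17-3p lay above miR-20b in 18, miR-20b above miR-106a in 15 and miR-106a above miR-18b in 13. The neighbours miR-18a and miR-17-3p therefore did not differ beyond their spread in every library. Within the miR-17 hairpin the 5p arm exceeded the 3p arm, with log2 ratios of 2.85 ± 0.340 in high-backfat pigs and 2.94 ± 0.393 in low-backfat pigs (SD, n = 9 each). Variation among animals differed between members: the coefficient of variation was 14.6% for miR-17-5p, 18.9% for miR-20a and 19.1% for miR-17-3p, but 35.3% for miR-18a, 45.6% for miR-19b and 52.8% for miR-19a. Without high replicate 6 and low replicate 7 it was 12.2%, 9.34%, 17.4%, 22.1%, 23.5% and 30.4% in the same order, with low replicate 7 alone left out 22.4% for miR-18a and 28.6% for miR-19b, and with high replicate 6 alone left out 10.5% for miR-20a.

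**Figure D1:**
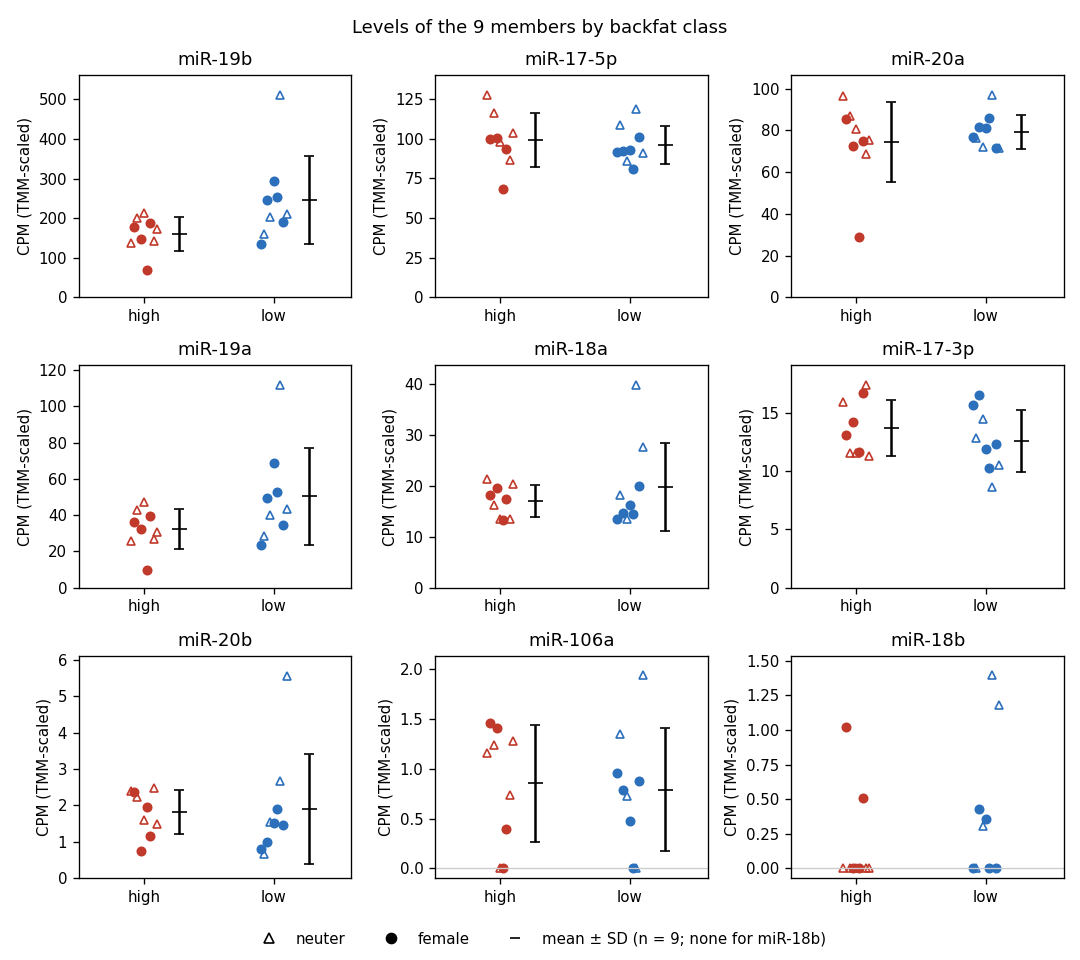
Levels of the 9 miRNAs in CPM after TMM scaling (vertical axis, from 0, a separate scale in each panel) in high and low backfat pigs, with 1 point per library, open triangles for neuter and filled circles for female pigs, and bars for mean ± SD (n = 9 each, none for miR-18b). miR-19b averaged 161 CPM in high-backfat and 245 CPM in low-backfat pigs with overlapping points, and high replicate 6 lies lowest for miR-19b, miR-19a, miR-20a and miR-17-5p. For miR-17-5p this place depends on the TMM scaling.

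High and low backfat pigs were compared to find miRNAs that differ with fat deposition. In edgeR's quasi-likelihood test, with a term for sex and Benjamini-Hochberg adjustment, 3.62% of tested miRNAs (8 in all) passed an adjusted p of 0.05, and 0 of the 8 tested members did. miR-18b was not tested for want of counts. At an unadjusted p under 0.05 there were 2 members, miR-19a and miR-19b, against 54 of all miRNAs (24.4%). DESeq2 called 0 members among 22 miRNAs, and limma called 0 members and 0 miRNAs. Of the 8 members, 3 had positive and 5 negative log2 fold changes (high over low), with a median of -0.09, against a median of -0.03 over all tested miRNAs.

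The miR-19 pair had the largest differences in mean level. miR-19b, the member held by both transcripts, had a lowest value of 70.1, a median of 173 and a highest value of 213.7 CPM in high-backfat pigs, against 134.5, 210.4 and 511 CPM in low-backfat pigs. The classes overlapped, although 8 of 9 high libraries lay below the low median and the extremes were high replicate 6 and low replicate 7. Mean levels were 161 ± 43.0 CPM in high-backfat pigs and 245 ± 111 CPM in low-backfat pigs (SD, n = 9 each), which gave a log2 fold change of -0.63 ± 0.23 (SE, edgeR, adjusted p = 0.119) that did not pass. Without high replicate 6 and low replicate 7 it was -0.26 ± 0.16 (edgeR, adjusted p = 0.395), and without low replicate 7 alone -0.40 (edgeR, adjusted p = 0.304). Libraries were also grouped here into 4 runs of consecutive library codes, which are not sequencing runs or batches named by the labels. Within these runs the log2 difference of means was -0.66 in AC485 to AC488 (1 high and 3 low libraries) and -0.38 in U074 to U077 (2 and 2). It was -0.95 in U134 to U139 (4 and 2) and 0.09 in U966 to U969 (2 and 2). Low replicate 7 belongs to AC485 to AC488 and high replicate 6 to U134 to U139.

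miR-19a, which shares the seed of miR-19b, had a lowest value of 9.89, a median of 32.6 and a highest value of 47.3 CPM in high-backfat pigs, against 23.6, 43.4 and 112 CPM in low-backfat pigs. The same 2 libraries were the extremes, the classes overlapped, and 8 of 9 high libraries lay below the low median. Means of 32.4 ± 11.1 CPM in high-backfat pigs and 50.3 ± 26.7 CPM in low-backfat pigs (SD, n = 9 each) gave a log2 fold change of -0.66 ± 0.29 (SE, edgeR, adjusted p = 0.167). Without high replicate 6 and low replicate 7 it was -0.22 ± 0.21 (edgeR, adjusted p = 0.611), and without low replicate 7 alone -0.39 (edgeR, adjusted p = 0.448). In the 4 runs of library codes it was -0.83, -0.25, -1.18 and 0.23, in the order given for miR-19b.

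The miR-17 seed group lay close to level between the classes. miR-17-5p, the first miRNA of the first transcript, had a lowest value of 68.0, a median of 100.01 and a highest value of 128 CPM in high-backfat pigs, against 80.7, 92.1 and 119 CPM in low-backfat pigs. High replicate 6 was again the lowest, and the classes overlapped over most of their range. The TMM factor of high replicate 6 was 1.37, against 0.805 to 1.14 in the other libraries, which lowers its CPM. Before TMM scaling the lowest high library for miR-17-5p was high replicate 9 (971 of 11674414 counts). High replicate 6 had 1747 of 18751203 counts. Means of 99.3 ± 16.9 CPM in high-backfat pigs and 95.9 ± 11.9 CPM in low-backfat pigs gave a log2 fold change of 0.03 ± 0.11 (edgeR, adjusted p = 0.886). miR-20a, also on the first transcript, had a lowest value of 28.7, a median of 75.6 and a highest value of 96.5 CPM in high-backfat pigs, against 71.7, 76.7 and 97.0 CPM in low-backfat pigs. Apart from high replicate 6 the high libraries spanned 68.6 to 96.5 CPM, much the same span as the low class. The log2 fold change of miR-20a was -0.12 ± 0.16 (edgeR, adjusted p = 0.668), and 0.07 without high replicate 6 and low replicate 7.

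The remaining members differed by less than their errors or nearly so. miR-18a, known in human cells to target the matrix gene CTGF, had a lowest value of 13.3, a median of 17.4 and a highest value of 21.3 CPM in high-backfat pigs, against 13.5, 16.3 and 39.7 CPM in low-backfat pigs. Low replicates 7 and 9 stood above every high library, and the log2 fold change was -0.21 ± 0.20 (edgeR, adjusted p = 0.541). It was 0.0034 without high replicate 6 and low replicate 7, and 0.12 when the run AC485 to AC488 was left out. miR-17-3p averaged 13.7 ± 2.42 CPM in high-backfat pigs and 12.6 ± 2.62 CPM in low-backfat pigs, a log2 fold change of 0.14 ± 0.15 (edgeR, adjusted p = 0.604). miR-20b and miR-106a, of the second transcript, had log2 fold changes of -0.05 ± 0.36 and 0.08 ± 0.74, from means of 1.82 and 0.852 CPM in high-backfat pigs and 1.90 and 0.792 CPM in low-backfat pigs. The third, miR-18b, was detected in 2 of 9 high and 5 of 9 low libraries. The summed level of the group, a description without a test, was 400 ± 82.1 CPM in high-backfat pigs (lowest 203, median 427, highest 476) and 506 ± 157 CPM in low-backfat pigs (lowest 357, median 463, highest 891). With high replicate 6 and low replicate 7 left out it was 425 ± 38.5 CPM in high-backfat pigs and 458 ± 65.2 CPM in low-backfat pigs (SD, n = 8 each).

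**Figure D2:**
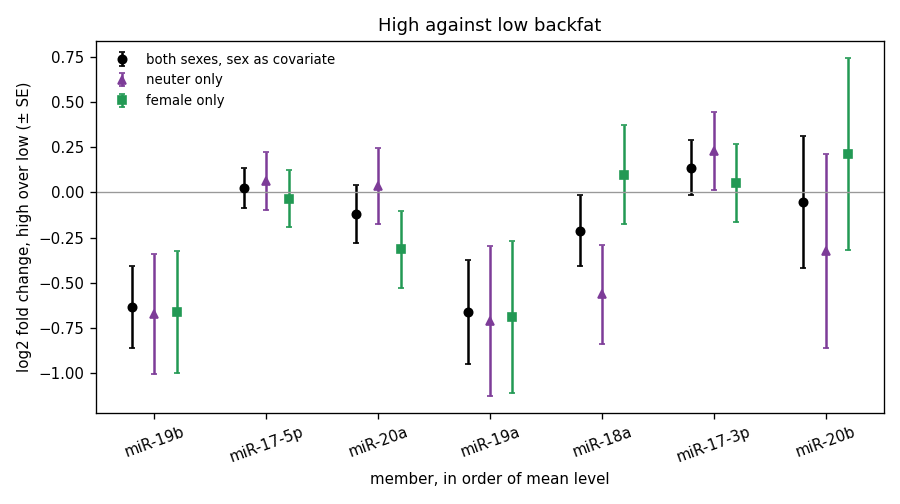
Log2 fold change of 7 members, high over low backfat, with SE bars (vertical axis), for both sexes with sex as a covariate, for neuter pigs and for females (horizontal axis: members in order of mean level). miR-19b and miR-19a lie below 0 in all 3 sets, at -0.63 and -0.66 in both sexes together, miR-17-5p lies near 0, and no value passed after adjustment.

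Within the deposited table the comparison was also fitted to single entries, 1 sequence under 1 precursor. Of 9012 tested entries 0 passed in edgeR (0%), with 663 at an unadjusted p under 0.05 (7.36%) and a lowest adjusted p of 0.0673. The members supplied 75 of the entries, or 59 distinct sequences. Of these 75 entries 0 passed, 7 entries of 5 sequences had an unadjusted p under 0.05 (9.33%), and the lowest adjusted p was 0.322. Log2 fold changes were positive for 14 and negative for 61 of the member entries, against 4332 positive and 4680 negative over all entries. All 16 tested miR-19b sequences were entered under both precursors with the same counts, and all were negative. Over the 59 distinct sequences 14 were positive and 45 negative. All tested miR-19a sequences were among the negative ones. Forms of the same miRNA are not independent, so this split largely repeats the fold changes of the miR-19 pair.

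Members of the same transcript did not move together in every animal. Spearman's rho of log2 CPM over the 18 libraries, given as a description because the points share their libraries and scaling, was 0.986 between miR-19a and miR-19b and 0.979 without high replicate 6 and low replicate 7. Between miR-17-5p and miR-19b it was 0.0031, and -0.38 without these 2 libraries. For miR-17-5p rho was 0.664 with miR-18a and 0.531 with miR-20a, and 0.526 and 0.335 without these 2 libraries. miR-17-5p and its partner arm miR-17-3p had a rho of -0.12. With the library total, rho was -0.52 for miR-17-5p and -0.60 for miR-18a, against 0.216 for miR-19b and 0.228 for miR-19a. GC content was 47.8% for miR-17-5p and 40.9% for miR-18a, and 39.1% for miR-19b and 34.8% for miR-19a. The part of depth or base content in these patterns was not tested.

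**Figure D3:**
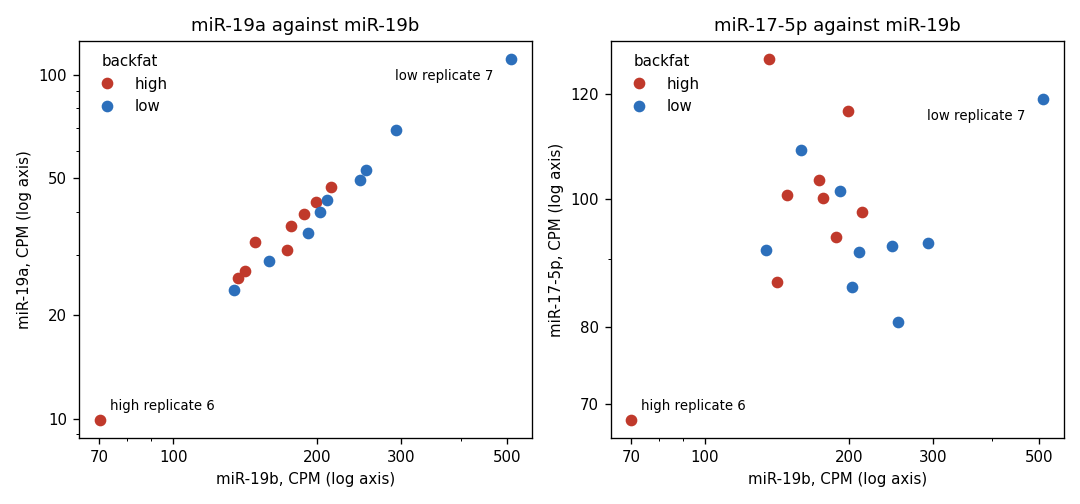
Level of miR-19a (left) and of miR-17-5p (right) against miR-19b in each library, in CPM on log axes, with high and low backfat in different colours and the 2 libraries that stood apart named. miR-19a rises with miR-19b along a narrow band (rho 0.986), whereas miR-17-5p shows no order with miR-19b (rho 0.0031).

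Ratios between members, which do not depend on library scaling, were compared for 8 pairs by exact two-sided permutation of the 9 and 9 libraries. At an adjusted p of 0.05, 0 of the 8 passed. The log2 ratio of miR-17-5p to miR-19b was -0.65 ± 0.37 in high-backfat pigs and -1.26 ± 0.52 in low-backfat pigs (SD, n = 9 each), a difference of 0.60 (exact permutation p = 0.0122, adjusted p = 0.0974), with all 9 high libraries above the low median. The difference was 0.42 without high replicate 6 and low replicate 7 (exact permutation, adjusted p = 0.201). Within the 4 runs it was 0.67, 0.66, 0.93 and 0.09, in the order given for miR-19b. The log2 ratio of miR-19b to miR-20a was 1.11 ± 0.27 in high-backfat pigs and 1.53 ± 0.45 in low-backfat pigs, a difference of -0.41 (exact permutation p = 0.0257, adjusted p = 0.103), and -0.32 without these 2 libraries (exact permutation, adjusted p = 0.201). Both passed without low replicate 1 (exact permutation, adjusted p = 0.0178 and 0.0171) or without low replicate 2 (0.0346 and 0.0474). The ratio of miR-17-5p to miR-20a differed by 0.19 (exact permutation, adjusted p = 0.275), and by 0.093 without high replicate 6. That of miR-17-5p to miR-18a differed by 0.18 (exact permutation, adjusted p = 0.593), by 0.082 without low replicate 7 and by -0.037 with the run AC485 to AC488 left out. The other 4 had an adjusted p of 0.912.

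The neuter and female pigs were compared in the same fit. edgeR called 0 of all tested miRNAs (0%) and 0 of 8 members, with 17 miRNAs (7.69%) and 0 members at an unadjusted p under 0.05. The log2 fold changes of 7 of the 8 members, neuter over female, were positive, against 48.0% of all tested miRNAs. The highest was 0.66 ± 0.36 for miR-20b, with means of 2.29 ± 1.38 CPM in 9 neuter and 1.43 ± 0.555 CPM in 9 female pigs (edgeR, adjusted p = 0.626), and it was 0.33 without low replicate 9 and 0.24 with the run AC485 to AC488 left out. The only negative value was -0.12 ± 0.15 for miR-17-3p (edgeR, adjusted p = 0.823).

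The backfat contrast was also taken within each sex. The log2 fold change of miR-19b was -0.67 in neuter and -0.66 in female pigs, a difference of -0.01 ± 0.47 (SE), and that of miR-19a was -0.71 and -0.69 (difference -0.02 ± 0.59). These errors were of the same order as the fold changes. Without low replicate 7 the log2 fold change was -0.11 in neuter and -0.66 in female pigs for miR-19b (difference 0.55), and -0.07 and -0.69 for miR-19a (difference 0.61). When 1 library was left out the difference ran between -0.27 and 0.55 for miR-19b and between -0.35 and 0.61 for miR-19a. It was 0.60 and 0.78 with the run AC485 to AC488 left out. miR-18a had -0.56 in neuter pigs, where low replicates 7 and 9 belong, and 0.10 in females, a difference of -0.66 ± 0.39 (edgeR, adjusted p = 0.537), which was -0.29 without low replicate 7. miR-18b was detected in 0 of 5 high and 3 of 4 low neuter pigs, and in 2 of 4 high and 2 of 5 low females. In the test of the difference between sexes edgeR called 0 of 226 miRNAs (0%) and 0 of 9 members. At an unadjusted p under 0.05 there were 25 miRNAs (11.1%) and 1 member, miR-18b. The members number 9 because the filter kept miR-18b in this fit by sex and class, though not in the main fit. Its counts were 0 or 11 to 26 per library, and it passed the filter through libraries where it was detected. Its unadjusted p rests on those same libraries and is no evidence of a difference. Within neuter pigs 6 of 226 miRNAs (2.65%) and 0 of 9 members passed in edgeR, with 54 (23.9%) and 1, miR-18b, unadjusted. For miR-18b this rests on counts of 0 in high and at most 14 in low neuter pigs, and the same limit applies. Within females 0 of 226 miRNAs (0%) and 0 of 9 members passed, with 25 (11.1%) and 0 unadjusted.

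The main 3′ end was read for the 6 members with a mean of at least 10 CPM, and 4 of them shared its position. For miR-17-5p the exact form was the main one, at 55.2% ± 5.58 of its counts (SD over 18 libraries). For miR-19b the main form ended 1 base short of the annotated end (65.3% of its counts), and the same held for miR-19a (56.0%), miR-17-3p (35.05%) and miR-18a (32.0%). The main form of miR-20a ran 1 base longer (64.9%). The leading reads of the members whose main form was not the exact one are shown beside those above, again with the seed in capitals.
miR-19b, main read: tGTGCAAAtccatgcaaaactg
miR-19a, main read: tGTGCAAAtctatgcaaaactg
miR-20a, main read: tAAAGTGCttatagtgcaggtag
miR-18a, main read: tAAGGTGCatctagtgcagat
miR-17-3p, main read: aCTGCAGTgaaggcacttgta
All of these keep the annotated 5′ end and thus the seed. A start 1 base earlier, which moves the seed, held 4.26% of miR-19a counts and 2.56% of miR-17-5p counts.

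**Figure D4:**
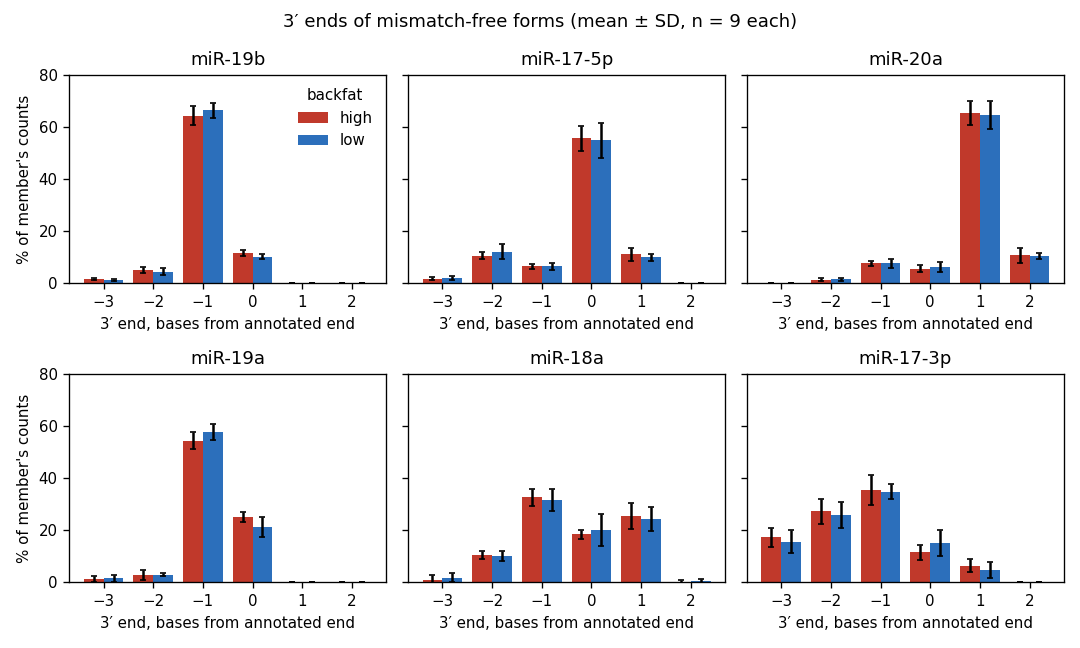
Share of each member's counts (vertical axis, percent, from 0) by the position of the 3′ end relative to the annotated end (horizontal axis, bases, negative for shorter), for mismatch-free forms with the annotated 5′ end, as mean ± SD over 9 high and 9 low backfat libraries. The highest bar stands at 0 for miR-17-5p, at 1 for miR-20a and at -1 for the other 4, in both classes.

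The shares of exact, of shorter or longer and of mismatch forms were compared for the 6 members with a mean of at least 10 CPM, in 18 exact two-sided permutation tests of 9 against 9. At an adjusted p of 0.05, 0 of the 18 passed, and 4 shared the lowest adjusted p of 0.0716. The shares of a member add up to its whole, so the tests within a member are not independent. For miR-19a the exact share differed by 3.95 points and the shorter or longer share by -3.93, nearly the same shift seen from both sides. The exact form of miR-19a held 25.2% ± 1.88 of its counts in high-backfat pigs and 21.2% ± 3.68 in low-backfat pigs, and that of miR-19b 11.7% ± 1.12 and 10.3% ± 0.993 (SD, n = 9 each). Shorter or longer forms of miR-19a held 62.6% ± 3.07 in high-backfat pigs and 66.5% ± 2.79 in low-backfat pigs. Those of miR-17-3p held 86.7% ± 3.55 in high-backfat pigs and 81.7% ± 3.93 in low-backfat pigs. Without low replicate 9, 3 of the 18 passed (both shares of miR-19a and the exact form of miR-19b), and without high replicate 8, 2 passed (the shorter or longer forms of miR-17-3p and miR-19a). With the run AC485 to AC488 left out, the exact forms of miR-19a and miR-19b passed, with differences of 4.68 and 1.95 percentage points (exact permutation, adjusted p = 0.024 each).

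Mismatch forms made up 17.3% ± 2.84 of miR-19b counts and 9.16% ± 2.47 of miR-20a counts. In miR-19b mismatches inside the read held 12.1% of counts, led by A6C (3.48%), T3G (2.25%) and T3A (1.63%), counted from the 5′ end of the exact form and so within the seed. A6C was also the leading one in miR-19a, at 2.62%. In miR-18a a read that ends in G where the precursor has A held 11.4% of counts. A table of counts cannot tell a sequencing error, an edit and an added base apart.

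The neighbours of the members and miRNAs of like or opposite role were taken as lists. Of the cluster partners outside the group, miR-92a and miR-363, 0 passed in edgeR. miR-92a, held by both transcripts, averaged 9142 ± 2434 CPM in high-backfat pigs and 7279 ± 1736 CPM in low-backfat pigs (log2 fold change 0.35 ± 0.16, edgeR, adjusted p = 0.187), and thus lay above every member. miR-363 of the second transcript had a log2 fold change of 0.04 ± 0.17. miR-92b-3p, which shares the miR-92a seed but is not encoded on either transcript, had 0.72 ± 0.24 (edgeR, adjusted p = 0.0758). Over all tested miRNAs 46.6% had positive and 53.4% negative values, with 1.36% called higher and 2.26% called lower. The role lists were matched by miRNA name and count both arms of a hairpin where present, whichever arm has the known role. Of 11 tested miRNAs on the list for promoting proliferation 7 had positive values. On that list 2 passed with higher levels in high-backfat pigs, miR-222 and miR-221-5p. The latter averaged 12.4 CPM in high-backfat and 5.85 CPM in low-backfat pigs. The more abundant arm, miR-221-3p, did not pass (log2 fold change 0.27 ± 0.18, edgeR, adjusted p = 0.363). Of 23 on the list for restraining proliferation 15 had negative values and 1, let-7c, passed with a lower level. Each of these calls had an edgeR adjusted p of 0.0486. They were lost with limma, with age as a covariate, with the run AC485 to AC488 left out and without any 1 of 6 libraries (high 1, 3 or 9, low 5, 6 or 9). miR-222 passed in 13 of 32 alternatives, miR-221-5p in 10 of 31 and let-7c in 8 of 32, with no change of sign.

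Markers of other cell types were set beside these values. The 4 tested skeletal muscle miRNAs all had negative log2 fold changes, as the miR-19 pair did, with 0 passed in edgeR, and their summed level ran between 48.3 and 131 CPM in high-backfat pigs and between 78.9 and 213.6 CPM in low-backfat pigs. All 6 mesenchymal miRNAs had negative values, against 53.4% of all tested miRNAs, and 2 passed with lower levels in high-backfat pigs, miR-199a-3p and miR-199a-5p (edgeR, adjusted p = 0.0486 each). These passed in 11 and 13 of 32 alternatives and were lost under the settings just named. The list had sums between 124506 and 247904 CPM in high-backfat pigs and between 173213 and 253743 CPM in low-backfat pigs. The part of either list in the values of the miR-19 pair was not tested. The red blood cell, white blood cell and endothelial lists had 0 of 4, 0 of 4 and 0 of 2 members passed and medians of -0.06, 0.00014 and 0.0022. The red blood cell list, which includes the cluster partner miR-363, had 2 positive and 2 negative values. In it miR-486 had 0.47 ± 0.21 and miR-451 had -0.35 ± 0.26. The sums of that list ran between 3178 and 6763 CPM in high-backfat pigs and between 2676 and 10474 CPM in low-backfat pigs. The adipose list had 0 of 5 passed, with 4 negative. The epithelial miR-205 and the liver miR-122 had -1.23 ± 0.63 and -0.76 ± 1.06, neither past the threshold.

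The miRNAs whose levels followed the members most closely over the 18 libraries were ranked among 213 others by Spearman's rho of log2 CPM, as a description. Those for miR-19b were miR-196a (0.789), miR-152 (0.761) and miR-190a (0.732), and the same 3 led for miR-19a, with 0.752, 0.723 and 0.759. For miR-17-5p they were miR-146b (0.550), miR-16 (0.548) and miR-10b (0.505), for miR-18a miR-98 (0.641), miR-451 (0.633) and miR-10b (0.585), and for miR-20a miR-186 (0.571), miR-29c (0.564) and miR-10a-5p (0.556). For miR-17-3p they were miR-7135-3p (0.713), miR-532-3p (0.711) and miR-296-5p (0.645). For the sum of the group they were miR-10a-5p (0.748), miR-130a (0.725) and miR-195 (0.723). Without high replicate 6 and low replicate 7 these values lay between 0.606 and 0.797 for the miR-19 pair, between 0.418 and 0.500 for miR-18a, between 0.658 and 0.871 for miR-17-3p and between 0.624 and 0.694 for the sum. For miR-17-5p they were 0.579, 0.712 and 0.321, and for miR-20a 0.547, 0.379 and 0.400, in the order given.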

How the data were processed

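Backfat was frozen after slaughter, RNA was extracted with Trizol, and TruSeq Small RNA libraries were sequenced on an Illumina GAII, per the labels' protocols. The deposited raw table gives whole-number counts per sequence variant, precursor and mature miRNA. The second deposited table holds a normalised signal, in which each library's counts are divided by a single size factor. The submitters' processing notes name HTSeq without a version, Bowtie 0.12.7, DESeq2 1.4.5 and the build Sscrofa10.2, with neither roles nor order. Trimming and mismatch settings were not given in the sources used here. Each table has 2 further columns that matched no sample and were not used. "Neuter" is the labels' own word.

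Counts were summed per mature miRNA, each sequence once at its highest listed count, with library totals over distinct sequences. edgeR 4.0.16 in R 4.3.3 tested all miRNAs (filterByExpr, minimum count 10, TMM, Benjamini-Hochberg threshold 0.05), with backfat class and sex as terms. Contrasts in each sex, and the difference between them, came from a fit with a mean for each of the 4 combinations of sex and class. SE was derived from the F statistic. Each library has its own animal number, so p-values measure the spread between animals. Ratios (prior count 2) and form shares had exact two-sided permutation tests over 48620 splits. Scripts were tested on simulated data. Alternatives were DESeq2 size factors, other filters, DESeq2 1.42.0, limma 3.58.1 on log2 (deposited normalised value plus 1), other covariates, other counting rules and left-out libraries.

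The members, lists and tests were chosen with earlier results of these data known. The named miRNAs are all members, the listed cluster partners (with miR-92b-3p, a seed relative), called members of the role lists, list markers, and for members with a mean of at least 10 CPM and for the group sum the 3 most alike. Leaving out high replicate 6 and low replicate 7 together, and the tests of final bases, were added after the values were seen. No genome of the authors' build was used, so no genomic coordinates are given, and neighbours come from Sscrofa11.1 by name.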

Additional observations from a re-analysis of the deposited data

Results flagged for a closer look

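In 72 groups of 9 values, the highest or lowest library lay farther from its neighbour than Dixon's 95% limit in 13. Chance flags about 1 in 20 groups of independent, normally distributed values. The groups here share members and libraries, and some hold many zeros, so the 13 cannot be set against that rate. The values are given without explanation.

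High replicate 6 had 28.7 CPM of miR-20a, with the next lowest high library at 68.6 CPM. It also had a summed group level of 203 CPM (next 357), a log2 ratio of miR-17-5p to miR-20a of 1.24 (next 0.472) and a log2 ratio of miR-19a to miR-19b of -2.82 (next -2.48). Low replicate 7 had 511 CPM of miR-19b (next 293), a summed group level of 891 CPM (next 567) and a log2 ratio of miR-17-5p to miR-17-3p of 3.75 (next 3.09).

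The other flags were spread over 6 libraries. High replicate 1 had a log2 ratio of miR-19b to miR-20a of 0.50 (next 1.03). High replicate 2 had 1.02 CPM of miR-18b (next 0.505), and low replicate 9 had 5.57 CPM of miR-20b (next 2.68). The exact form held 18.0% of miR-17-3p counts in high replicate 5 (next 13.2%) and 8.87% of miR-20a counts in high replicate 9 (next 6.43%). Mismatch forms held 9.61% of miR-17-3p counts in high replicate 8 (next 3.25%).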

How the results depend on the processing

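No member passed in the backfat contrast, the sex contrast or the difference between sexes under any alternative run. The log2 fold change stayed negative for miR-19b (-0.76 to -0.26, adjusted p 0.0519 to 0.425) and miR-19a (-0.80 to -0.22, adjusted p 0.0817 to 0.611) under all 32 alternatives.

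The number of all miRNAs called between the classes, 8, was 1 when edgeR used DESeq2 size factors, 1 with every miRNA kept, 22 with DESeq2's Wald test, 0 with limma, 0 with age as a covariate, 0 with the run AC485 to AC488 left out, 3 with exact matches only and 3 without mismatch forms. Leaving out 1 library gave 0 to 12 (0 when the library was high 1, 3 or 9 or low 5, 6 or 9, then 1 for high 2, 4 or 8 and low 4 or 8, 2 for high 5 and low 7, and 5 for low 3). It gave 0 to 3 calls for the difference between sexes, 0 to 2 for the ratios and 0 to 3 for the form shares. Without the AC485 to AC488 libraries 2 form shares passed.

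Values near 0 changed sign, and the cause was not tested. miR-17-5p was -0.0050 with a mean of at least 10 CPM, -0.014 to 0.062 when 1 library was left out, and 0.13 without high replicate 6 and low replicate 7. miR-20b was 0.16 with limma, 0.20 with a term for the code run, 0.51 without the AC485 to AC488 libraries, 0.039 with all listings summed, 0.048 with exact matches only, and -0.19 to 0.29 when 1 library was left out. miR-106a was -0.11 with age and -0.16 to 0.31 when 1 library was left out. miR-18a was 0.050 with the run term, 0.12 without the AC485 to AC488 libraries and 0.0034 without high replicate 6 and low replicate 7, where miR-20a was 0.067. When 1 library was left out these were -0.29 to -0.040 and -0.17 to -0.022. miR-17-3p was -0.23 with exact matches only, and 0.041 between the sexes without the AC485 to AC488 libraries. The difference between sexes without those libraries was 0.78 for miR-19a and 0.60 for miR-19b. Without high replicate 6 and low replicate 7 it was 0.23 for each, and when 1 library was left out -0.35 to 0.61 and -0.27 to 0.55. Without the AC485 to AC488 libraries the log2 ratio differences were -0.037 for miR-17-5p to miR-18a and 0.046 for miR-17-5p to miR-17-3p. Without high replicate 6 and low replicate 7 they were 0.051 for miR-17-5p to miR-17-3p, -0.02 for miR-17-5p to miR-106a and 0.041 for miR-19a to miR-19b. When 1 library was left out they were -0.15 to 0.012, -0.27 to 0.42 and -0.055 to 0.025 for these 3, and -0.48 to 0.27 for miR-20a to miR-106a.

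No paired analysis was possible because the labels name no pairs of animals, and the replicate numbers used here only name the libraries. The depth limits miR-106a and miR-18b, at under 1 CPM.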

Other observations

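The final base of reads that otherwise match the precursor was examined after its shares had been seen, when a difference for miR-17-5p had already been noticed, so the tests describe a pattern and are not independent of it. All 8 pairs of member and final base with a mean share of at least 1% were tested by exact two-sided permutation of the 9 and 9 libraries. A final A that the precursor lacks ended 3.38% to 5.11% of miR-17-5p reads in high-backfat pigs (median 4.23%), against 1.96% to 3.68% in low-backfat pigs (median 3.32%). The ranges overlapped, and all 9 high libraries lay above the low median. Means of 4.15% ± 0.695 in high-backfat pigs and 3.17% ± 0.507 in low-backfat pigs differed by 0.982 percentage points (SD, n = 9 each, exact permutation p = 0.00234, adjusted p = 0.0188). The difference was 0.927 points without high replicate 6 and low replicate 7 (exact permutation, adjusted p = 0.0211), and the call was lost without low replicate 7 alone (exact permutation, adjusted p = 0.0533). Within the 4 runs of library codes it was 1.49 points in AC485 to AC488, 0.206 in U074 to U077, 1.08 in U134 to U139 and 0.802 in U966 to U969.

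A final T ended 4.46% ± 0.981 of miR-17-5p reads in high-backfat pigs and 5.66% ± 1.08 in low-backfat pigs, which did not pass (exact permutation, adjusted p = 0.107). The other 6 pairs, among them the final T of miR-19a, miR-19b and miR-20a and the final G of miR-18a, had adjusted p between 0.19 and 0.734. Sequencing error at read ends was not measured, and its part in these shares was not tested.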
